A study of Mus musculus with 4 samples.

Results

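Fn1, Vcan, Spp1, Tgfbi and Thbs1, which encode matrix and matricellular proteins secreted by monocytes and macrophages (Mφs), were followed across leukocyte classes of the injured gut muscle layer. They are 5 of the 16308 genes counted. They were picked by name with earlier results of these data in view, as genes with high levels in infiltrating Mφs, so their levels across cell classes are a description and carry no test. The study sorted CD45+ cells from the small intestinal muscularis of mice aged 12 weeks and sequenced their RNA cell by cell in droplets. Mice were sampled 24 h or 72 h after intestinal manipulation, a surgical handling of the gut that inflames its muscle layer. WT mice were C57BL/6J, and CCR2 KO mice carried the B6.129S4-Ccr2tm1Ifc/J allele, which removes the chemokine receptor that monocytes need to leave the bone marrow. Each genotype gave 1 library per time, 4 in all, and every library pooled several mice. The deletion was present in every cell of the KO mice, so it was not restricted to monocytes. Groups had no replicates, and the intervals below are 95% intervals of counting error only.

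Fibronectin, the product of Fn1, is deposited in wounds as a provisional scaffold that cells grip through integrins. Versican, from Vcan, is a large proteoglycan that binds hyaluronan and is a known product of classical monocytes. Osteopontin, from Spp1, and thrombospondin 1, from Thbs1, are matricellular proteins, which sit in the matrix and signal to cells through integrins, CD44, CD36 and CD47 rather than bearing load, and thrombospondin 1 can also activate latent TGF-β. Tgfbi encodes a TGF-β-induced protein that links collagens and integrins. Fibroblasts, smooth muscle and platelets also make several of these proteins, but the CD45 sort was for leukocytes, so levels in these other cells are not described here.

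On GRCm38, Fn1 (ENSMUSG00000026193.15) lies on chromosome 1 at 71585520 to 71653200 on the minus strand, and Vcan (ENSMUSG00000021614.16) on chromosome 13 at 89655312 to 89742509 on the minus strand. Spp1 (ENSMUSG00000029304.14) lies on chromosome 5 at 104435118 to 104441050, Tgfbi (ENSMUSG00000035493.10) on chromosome 13 at 56609523 to 56639562 and Thbs1 (ENSMUSG00000040152.8) on chromosome 2 at 118111876 to 118127133, all on the plus strand. RefSeq promoter windows of GRCm38.p6 were available for 3 of the 5 genes. They are shown because Spp1 had the largest genotype ratio in monocyte/Mφ-like cells at 24 h, whereas Vcan and Tgfbi were both lower in CCR2 KO there. Each is the 250 bases before the RefSeq start, 5′ to 3′ on the gene's strand: chr5:104434861-104435110 for Spp1 (the first of 2 windows, plus strand), chr13:89742513-89742762 for Vcan (minus strand) and chr13:56609336-56609585 for Tgfbi (plus strand). Capitals mark matches to 3 motifs searched on both strands, TGANTCA for AP-1, TATAAA for the TATA box and GAGGAAGT for PU.1, none of which overlapped another.
Spp1: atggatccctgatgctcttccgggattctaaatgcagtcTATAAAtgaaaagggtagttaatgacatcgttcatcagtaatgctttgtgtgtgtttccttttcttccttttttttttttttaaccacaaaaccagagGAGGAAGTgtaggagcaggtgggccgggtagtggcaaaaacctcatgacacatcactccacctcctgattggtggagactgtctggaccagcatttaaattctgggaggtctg
Vcan: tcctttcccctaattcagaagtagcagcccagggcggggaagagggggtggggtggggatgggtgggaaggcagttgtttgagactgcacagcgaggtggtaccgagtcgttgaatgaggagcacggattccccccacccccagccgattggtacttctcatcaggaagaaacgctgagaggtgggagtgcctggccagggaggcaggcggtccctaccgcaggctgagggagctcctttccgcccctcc
Tgfbi: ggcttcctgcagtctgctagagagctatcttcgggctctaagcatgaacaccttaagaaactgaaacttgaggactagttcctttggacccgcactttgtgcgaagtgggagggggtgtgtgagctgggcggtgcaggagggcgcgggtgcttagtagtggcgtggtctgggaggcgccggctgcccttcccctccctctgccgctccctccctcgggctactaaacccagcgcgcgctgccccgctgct

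The Spp1 window held a TATAAA that began 211 bases before the start and a GAGGAAGT that began 113 bases before it, and no TGANTCA. Neither the Vcan nor the Tgfbi window held any of the 3. Among 32817 windows of the same length in the table, TATAAA was found in 12.4%, GAGGAAGT in 2.44% and TGANTCA in 6.75%. The GC content was 43.6% for Spp1 and 62.4% for both Vcan and Tgfbi. A letter match is not a binding site, and no match says only that these letters are not in this window.

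Across the libraries 1048 to 1774 cells and 9736725 to 21206308 UMIs (unique molecular identifiers, 1 per captured transcript molecule) were deposited, and 4 cell barcodes occurred in more than 1 library. In monocyte/Mφ-like cells the targeted gene Ccr2 stood at 756 CPM in WT and 95.8 CPM in CCR2 KO at 24 h, and at 1064 and 83.3 CPM at 72 h. CPM are UMIs of a gene per 1000000 UMIs of the cell class. Each cell was put in the class whose marker genes it held most of, and the ending -like says only this. Of 5811 cells, 201 (3.46%) stayed without a class. Monocyte/Mφ-like cells numbered 1264 in WT and 212 in CCR2 KO at 24 h, and 871 and 133 at 72 h, with median UMIs between 14073 and 15942. Neutrophil-like cells numbered 301, 1307, 187 and 535 in the same order, with median UMIs between 2060 and 3453. The 12 monocyte/Mφ markers defined the monocyte/Mφ-like class, so their detection there in every library is no check of it. All 12 were also detected in dendritic cell-like cells of every library. In monocyte/Mφ-like cells fibroblast markers summed to 1.38 to 11.7 CPM, mesothelial markers to at most 0.314 CPM and platelet markers to at most 5.74 CPM. Only 3 of the 5 mesothelial and 3 of the 9 platelet markers were among the genes counted. Smooth muscle markers summed to 10.8 to 77.4 CPM in these cells, endothelial markers to 20.3 to 47.85 CPM and neutrophil markers to 345 to 724 CPM. Among the 82 cells of CCR2 KO 72 h without a class, 5 held fibroblast marker UMIs, which brought the sum there to 11285 CPM.

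Of the 5 genes, Fn1 and Vcan were high in monocyte/Mφ-like cells and low in neutrophil-like cells, whereas Spp1, Tgfbi and Thbs1 also had high levels in neutrophil-like cells. For Thbs1, neutrophil-like cells held 61.4% of its UMIs in CCR2 KO 24 h and 42.9% in CCR2 KO 72 h, more than the monocyte/Mφ-like cells of those libraries. These shares depend on how many cells of each class were captured, so the levels per class are given next.

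In monocyte/Mφ-like cells Fn1 stood at 1248 CPM (1233 to 1264) in WT against 908 (877 to 940) in CCR2 KO at 24 h, followed by 1602 (1580 to 1624) and 771 (734 to 810) at 72 h. In neutrophil-like cells it was 15.0, 13.9, 12.9 and 7.17 CPM in the same order, which is 65.4 to 125 times lower, and 1 neutrophil-like cell held 43 of the 57 UMIs of CCR2 KO 24 h. Dendritic cell-like cells were low in 3 libraries, at 6.33 to 10.6 CPM, and stood at 164 CPM (148 to 182) in WT 72 h, where 22 of 121 cells had an Fn1 UMI and 10 cells held 91.1% of them. Monocyte/Mφ-like cells held 87.8% to 98.8% of all Fn1 UMIs of a library.

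Vcan was the lowest of the 5 in monocyte/Mφ-like cells, at 279 CPM (272 to 286) in WT against 171 (158 to 185) in CCR2 KO at 24 h, followed by 44.2 (40.6 to 48.0) and 118 (104 to 134) at 72 h. Levels of different genes are UMIs captured at the 3′ end and not corrected for capture, so this order is one of UMIs. Neutrophil-like cells had 1.36 to 8.13 CPM, and at most 1 UMI per library was found in T/NK/innate lymphoid cell-like cells. With every cell thinned to 1000 UMIs, Vcan was detected in 3.72% to 17.7% of monocyte/Mφ-like cells and in none of the 28 to 171 lymphoid cells per library that served as background, which allows a share of up to 1.75% to 10.7%. Monocyte/Mφ-like cells held 76.2% to 98.8% of all Vcan UMIs of a library, with the lowest share in CCR2 KO 72 h, where cells without a class held 17.6% of them and stood at 148 CPM, with a Vcan UMI in 4 of 82 cells.

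Spp1 had its highest level in monocyte/Mφ-like cells of CCR2 KO 24 h, at 4927 CPM (4855 to 5000), beside 1071 (1056 to 1086) in WT 24 h, and at 72 h 483 (471 to 495) in WT against 689 (654 to 726) in CCR2 KO. Neutrophil-like cells stood at 147 CPM in WT and 358 CPM in CCR2 KO at 24 h, and at 401 and 362 CPM at 72 h. The gap between the classes was thus wide at 24 h, at 7.27-fold in WT and 13.8-fold in CCR2 KO, and narrow at 72 h, at 1.21-fold and 1.90-fold.

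For Tgfbi, monocyte/Mφ-like cells had 1373 CPM (1356 to 1389) in WT against 966 (934 to 999) in CCR2 KO at 24 h, followed by 730 (716 to 745) and 934 (892 to 976) at 72 h, and in this order neutrophil-like cells had 693, 610, 414 and 432 CPM. The monocyte/Mφ-like level was 1.58 to 2.16 times the neutrophil-like level in the 4 libraries. Dendritic cell-like cells followed with 84.6 to 182 CPM. T/NK/innate lymphoid cell-like cells were lower, at 2.23 to 17.3 CPM.

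In monocyte/Mφ-like cells Thbs1 was at 918 CPM (905 to 932) in WT against 1096 (1062 to 1130) in CCR2 KO at 24 h, followed by 472 (460 to 485) and 215 (195 to 236) at 72 h. In the same order the neutrophil-like levels were 765 CPM (703 to 831), 1753 (1713 to 1794), 268 (223 to 319) and 269 (247 to 292). Neutrophil-like cells were thus above monocyte/Mφ-like cells in both CCR2 KO libraries and below them in both WT libraries, with no overlap of the counting intervals. In CCR2 KO 72 h this order turned among cells with at most 5% mitochondrial UMIs. There Thbs1 was at 447 CPM (401 to 498) in 44 monocyte/Mφ-like cells and 268 (246 to 291) in 529 neutrophil-like cells. In CCR2 KO 24 h there were 12625 Thbs1 UMIs per 100 Fn1 UMIs in neutrophil-like cells and 121 in monocyte/Mφ-like cells.

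**Figure D1:**
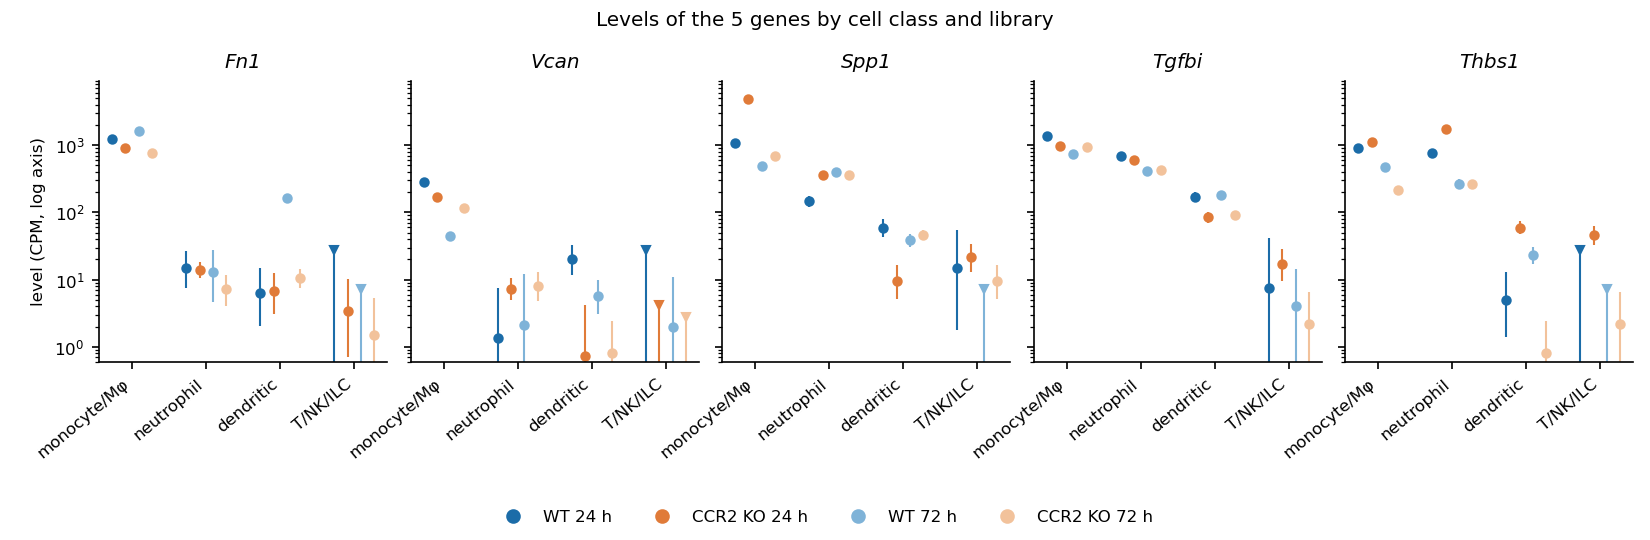
Level of each gene in CPM (log axis) by cell class, 1 point per library, with 95% counting intervals; a triangle marks the upper limit where no UMI was found. Fn1 and Vcan drop between monocyte/Mφ-like and neutrophil-like cells, Tgfbi is 1.58 to 2.16 times lower in neutrophil-like cells, Thbs1 overlaps in range between them, and Spp1 at 4927 CPM in CCR2 KO 24 h is the highest point.

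Shares of cells with at least 1 UMI were compared at equal depth. At 1000 UMIs per cell, Thbs1 was detected in 44.5% of 1258 monocyte/Mφ-like cells in WT and 40.9% of 208 in CCR2 KO at 24 h, and in 27.3% of 860 and 17.2% of 128 at 72 h. In neutrophil-like cells the shares were 26.6%, 33.4%, 13.9% and 10.8%, and in lymphoid cells at most 2.05%. In the CCR2 KO libraries the shares of the 2 classes thus ran against their CPM, so no order of the classes is read from them there. Without thinning, when monocyte/Mφ-like cells are several times deeper, the monocyte/Mφ-like shares were 81.3%, 62.3%, 62.2% and 35.3%. Tgfbi was the gene found in most neutrophil-like cells, in 44.3%, 40.7%, 25.0% and 27.1% at 1000 UMIs in the same order.

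To ask how the loss of CCR2 moved the genes in the monocytes and Mφs that were present, levels were compared between CCR2 KO and WT within monocyte/Mφ-like cells. At 24 h Spp1 was 4.60-fold higher in CCR2 KO, with a log2 ratio of 2.20 (2.17 to 2.23). The other 4 genes stayed within 2-fold. Vcan, Tgfbi and Fn1 were lower, with log2 ratios of -0.70 (-0.83 to -0.58), -0.51 (-0.56 to -0.46) and -0.46 (-0.51 to -0.41), and Thbs1 had 0.25 (0.20 to 0.30). So 1 of 5 was past 2-fold, where 4.16% of the 3225 genes at 50 CPM or more were past it. Of these genes 2.98% were higher and 1.18% lower (96 and 38 genes, or 81 and 53 under TMM, a scaling that assumes most genes do not differ). The median log2 ratio was -0.46 over the 5 and -0.08 over all genes compared. Without the 10 cells with most Spp1 UMIs in each library the Spp1 ratio was 1.24, and under the same rule Vcan reached -1.36 and Thbs1 was at -0.025. These 10 cells are a larger part of 212 CCR2 KO cells than of 1264 WT cells, so the rule itself tends to lower the ratios. The libraries also filled the class with different sub-clusters, since the one led by Ccl2, Ccl7, Spp1 and Ccl4, at 5733 CPM of Spp1, held 84 of the 212 CCR2 KO cells and 49 of the 1264 WT cells at 24 h.

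At 72 h Vcan had a higher level in monocyte/Mφ-like cells from CCR2 KO, at 1.40 (1.20 to 1.64), while Thbs1 at -1.13 (-1.28 to -0.998) and Fn1 at -1.05 (-1.13 to -0.98) were lower on the log2 scale. Spp1 and Tgfbi had 0.51 (0.43 to 0.60) and 0.35 (0.28 to 0.42). Thus 3 of 5 were past 2-fold, 1 higher and 2 lower, where 7.67% of 3456 genes were. Of these genes 4.83% were higher and 2.84% lower (167 and 98 genes, or 118 and 154 under TMM, which shifted all ratios by -0.17). Median log2 ratios were 0.35 over the 5 and 0.13 over all genes compared.

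These 72 h ratios rested on few cells of CCR2 KO, and on different sub-clusters: the one led by C1qa, Ccl8 and Stmn1 held 77 of the 133 CCR2 KO cells and 59 of the 871 WT cells, and the one led by Apoe, Selenop and C1qa held 1 and 403. The 10 cells with most UMIs held 77.3% of Vcan, 82.4% of Spp1, 64.4% of Thbs1, 60.0% of Fn1 and 38.4% of Tgfbi among its 133 cells. Without the 10 highest cells of each library the Vcan ratio was -0.040, Spp1 was at -1.24, Tgfbi at -0.066, and Fn1 and Thbs1 were at -1.96 and -2.31. As 10 cells are a larger part of 133 than of 871, this setting itself tends to lower the ratios. Mitochondrial share also differed, with a median of 5.89% in these cells and 4.28% in WT 72 h. Among the 44 CCR2 KO cells with at most 5% mitochondrial UMIs Fn1 was at 1436 CPM and Thbs1 at 447 CPM, and among the 89 above it they were at 402 and 85.6 CPM. In WT 72 h both went the other way. Fn1 was at 1282.5 CPM at or below 5% and 2339 CPM above it, and Thbs1 at 445 and 535 CPM. With only cells of at most 5%, the Fn1 ratio was 0.16 and the Thbs1 ratio 0.0062, so neither stayed lower. Their part in the result was not tested.

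Between 24 h and 72 h in WT, 4 of the 5 genes were lower at 72 h in monocyte/Mφ-like cells and Fn1 was higher. Vcan had the largest difference, at -2.63 (-2.79 to -2.53), from 279 to 44.2 CPM. Spp1 was at -1.15 (-1.19 to -1.11), Thbs1 at -0.96 (-1.001 to -0.92) and Tgfbi at -0.91 (-0.94 to -0.88), whereas Fn1 was at 0.36 (0.33 to 0.39). Of the 5, 2 were past 2-fold, both lower, where 8.1% of 3458 genes were lower past it and 6.3% higher (280 and 218 genes, or 393 and 163 under TMM). TMM shifted all ratios of this comparison by -0.15, which put Tgfbi and Thbs1 past 2-fold too. Without cells holding any UMI of a non-immune marker, Spp1 was at -0.79. Smooth muscle markers moved with time, at a sum of 10.8 CPM in WT 24 h and 77.4 CPM in WT 72 h with all 6 markers detected in both, and their part was not tested.

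In CCR2 KO the same comparison gave lower Spp1, at -2.84 (-2.92 to -2.76), and lower Thbs1, at -2.35 (-2.50 to -2.21). Vcan at -0.53 (-0.75 to -0.32) and Fn1 at -0.24 (-0.32 to -0.15) were within 2-fold, and the interval of Tgfbi held 0, at -0.05 (-0.13 to 0.03). So 2 of 5 were past 2-fold, both lower, where 5.76% of 3507 genes were lower and 7.64% higher (202 and 268 genes, or 347 and 170 under TMM, which shifted all ratios by -0.25). Under the 11 alternative settings Spp1 lay between -3.89 and -1.49 and Thbs1 between -3.33 and -1.26. Fn1 was at 0.20 when every cell weighed the same, at 0.22 without cells holding a non-immune marker UMI and at 0.71 with cells of at most 5% mitochondrial UMIs, so its direction turned. Vcan was at 0.65 with cells of at most 5% mitochondrial UMIs and at -1.71 without the 10 highest cells, and Tgfbi was at 0.51 and 0.25 with at most 5% mitochondrial UMIs and without cells holding a non-immune marker UMI. The 4 comparisons share libraries, so they are not independent of each other.

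**Figure D2:**
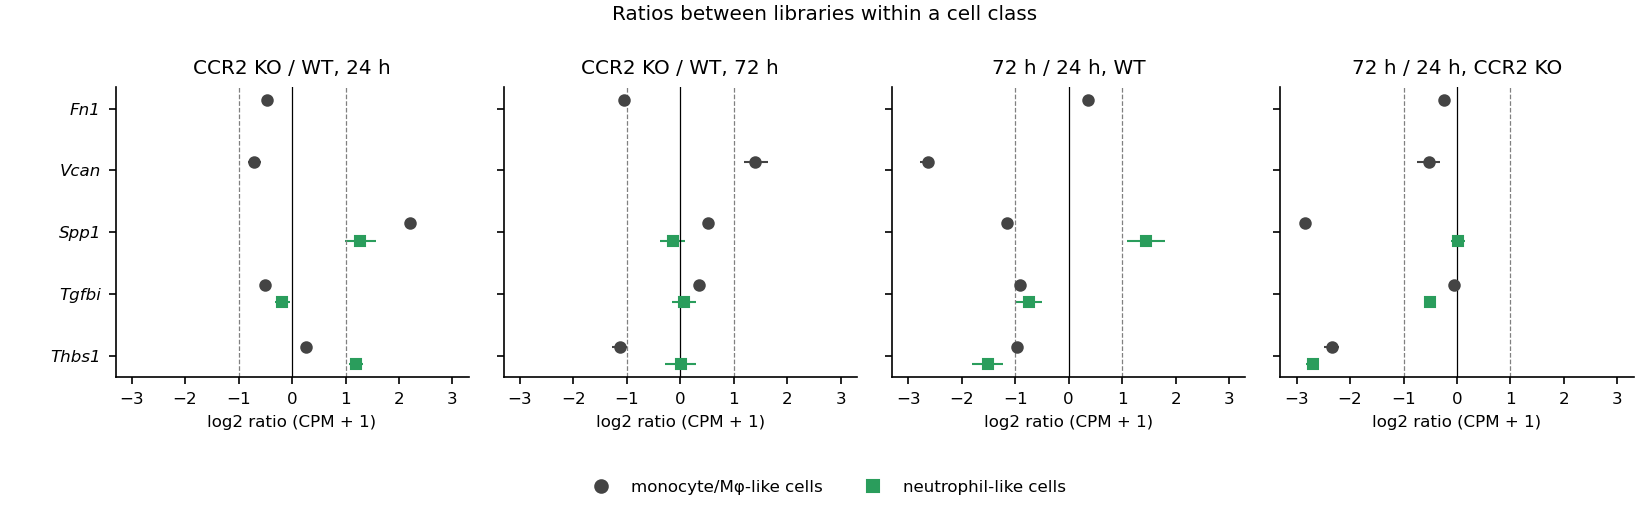
Log2 ratio of CPM + 1 between libraries for each gene, in monocyte/Mφ-like cells (circles) and, for genes at 50 CPM or more, in neutrophil-like cells (squares), with 95% counting intervals; dashed lines mark 2-fold. Spp1 stands at 2.20 in CCR2 KO against WT at 24 h, Vcan at -2.63 between the times in WT, and Thbs1 is below -2 between the times in CCR2 KO in both classes.

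Monocyte/Mφ-like cells were then split by subset genes named in the study, with Fn1 left out of the lists. Lists for large peritoneal Mφs and dividing cells were added here. The Ccr2+ intermediate Mφs and the Fn1+ monocyte/Mφ cluster that the study reported got no gate. The 5 genes differed in their place among the subsets. Of 2480 cells, 799 stayed without a subset, and 5 to 180 cells per gate lay within 0.1 of its edge, so these are ranges and not types, and with sub-clusters in place of gates 42 of 60 levels lay outside their counting interval. Only libraries with 20 or more cells in a gate are compared.

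Vcan was highest in cells gated on Ly6c2, Plac8, Hp and Chil3, genes of classical monocytes, at 446 CPM (423 to 471) in WT 24 h and 319 (259 to 388) in WT 72 h. Cells gated on Arg1, Ccl9 and Srgn had 438 CPM in WT 24 h, 272 in CCR2 KO 24 h and 192 in WT 72 h. It was near 0 in the gate of Mrc1, Selenop, Igf1, Trem2 and Stab1, the Cd206 gate, at 4.59 CPM in 335 cells of WT 72 h and 3.17 CPM in 22 cells of CCR2 KO 72 h. Cells gated on Cx3cr1, Cd81 and Cd72, genes of resident Mφs, had 0 Vcan UMIs in CCR2 KO 24 h (34 cells) and 3.21 CPM in WT 72 h (95 cells).

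Fn1 was highest in the gate of Timp2, Ltc4s, Adgre5 and Saa3, at 5122 CPM (4976 to 5271) in 69 cells of WT 72 h. The Arg1 gate followed with 3212 CPM in WT 72 h, 2153 in WT 24 h and 1816 in CCR2 KO 24 h. With sub-clusters in place of gates, Fn1 in WT 24 h was at 1451 CPM in Arg1 and 1458 in Ly6c, so Arg1 did not lead there. The Arg1 sub-cluster held only 1 cell of WT 72 h and 2 of CCR2 KO 24 h, and no sub-cluster was named Timp2. The Cx3cr1 gate was lowest, at 383 CPM in WT 24 h, 43.5 in CCR2 KO 24 h and 189 in WT 72 h. A few cells gated on markers of large peritoneal Mφs, such as Gata6 and Prg4, had Fn1 at 5030 CPM in 15 cells of WT 24 h and 13183 CPM in 8 cells of WT 72 h, and Thbs1 at 3436 and 5032 CPM, but they were too few to be compared.

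Spp1 followed the gate of Fabp5, Lgals1, Ccl7 and Flt1 and the Arg1 gate. In the Fabp5 gate it stood at 1647 CPM (1609 to 1687) in 266 cells of WT 24 h and 5408 (5277 to 5542) in 59 cells of CCR2 KO 24 h. In the Arg1 gate the values were 1526 and 4256 CPM. CCR2 KO was above WT within both gates at 24 h, and also among cells without a subset, at 8161 and 862 CPM. With sub-clusters in place of gates, only 13 CCR2 KO 24 h cells were left in Fabp5 and 2 in Arg1. Of the 10 CCR2 KO 24 h cells with most Spp1 UMIs, 2 were in the Fabp5 gate, 2 in the Arg1 gate and 5 without a subset. Whether the gates hold like cells in both genotypes was not tested. In WT 72 h the Cd206 and Arg1 gates were alike in level, at 583 and 577 CPM. The Cx3cr1 gate was low at 24 h, at 8.91 CPM in WT and 18.1 CPM in CCR2 KO.

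Tgfbi was high in the Ly6c gate, at 1839 CPM (1791 to 1888) in WT 24 h, and as high in the Cx3cr1 gate of WT 24 h, at 1831 (1658 to 2017, 20 cells). With sub-clusters in place of gates the 2 were not alike in WT 24 h. Ly6c was at 2058 CPM (1996 to 2122) and Cx3cr1 at 1233 (1128 to 1346, 33 cells). In the Cx3cr1 gate of CCR2 KO 24 h it was 712 CPM (643 to 786, 34 cells). It was lowest in the Timp2 gate of WT 72 h among gates of WT 72 h with 20 cells, at 551 CPM, where Fn1 was highest. Thbs1 was spread over the Arg1, Fabp5 and Ly6c gates at 24 h, at 775 to 1224 CPM in WT and 1189 to 1210 CPM in the CCR2 KO gates with 20 cells. In the Cx3cr1 gate of CCR2 KO 24 h only 3.62 CPM were found.

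**Figure D3:**
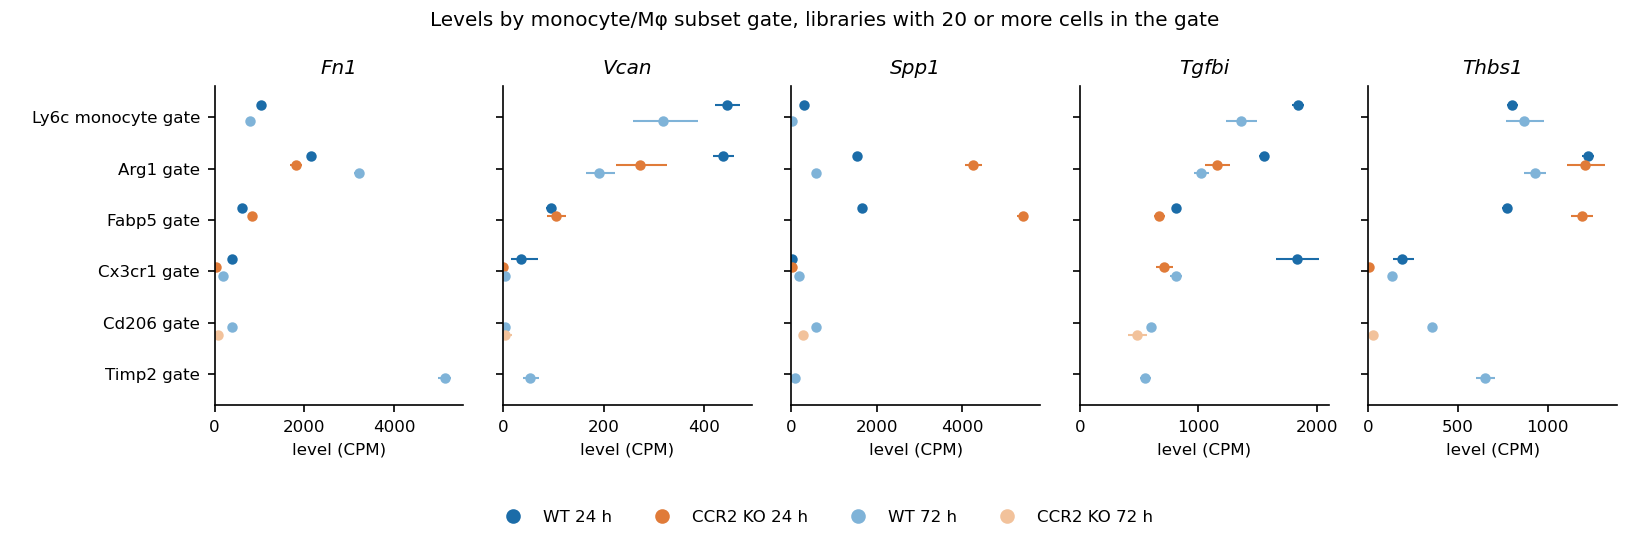
Level in CPM by subset gate of monocyte/Mφ-like cells, 1 point per library with 20 or more cells in the gate, with 95% counting intervals; the gates for dividing and large peritoneal cells are not drawn. Leading gates differ between the genes but are partly shared. They are the Timp2 gate for Fn1 (5122 CPM) and the Ly6c and Arg1 gates for Vcan. For Spp1 they are the Fabp5 and Arg1 gates of CCR2 KO 24 h, and for Tgfbi the Ly6c and Cx3cr1 gates of WT 24 h. With sub-clusters, which are not drawn, Tgfbi in WT 24 h was lower in Cx3cr1 (1233 CPM) than in Ly6c (2058 CPM). Thbs1 is highest in the Arg1 gate of WT 24 h (1224 CPM).

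The genes also differed in how many cells carried them. In WT 24 h, 50% of the Spp1 UMIs lay in 3.01% of the monocyte/Mφ-like cells, compared with 9.81% of cells for Vcan, 13.1% for Thbs1, 13.8% for Fn1 and 20.2% for Tgfbi. Spp1 was as concentrated in the other libraries, with 50% of its UMIs in 2.83% to 3.01% of cells, and Tgfbi remained the most spread, at 12.8% to 21.7%. Vcan narrowed from 9.81% of cells in WT 24 h to 2.64% in WT 72 h. A single cell of CCR2 KO 24 h held 3146 Spp1 UMIs and the next 2834, and the 10 highest cells, at 48043 CPM, held 62.0% of the class's Spp1. Among the other 202 cells of that library Spp1 was at 1997 CPM, compared with 843 CPM in WT 24 h without its 10 highest.

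**Figure D4:**
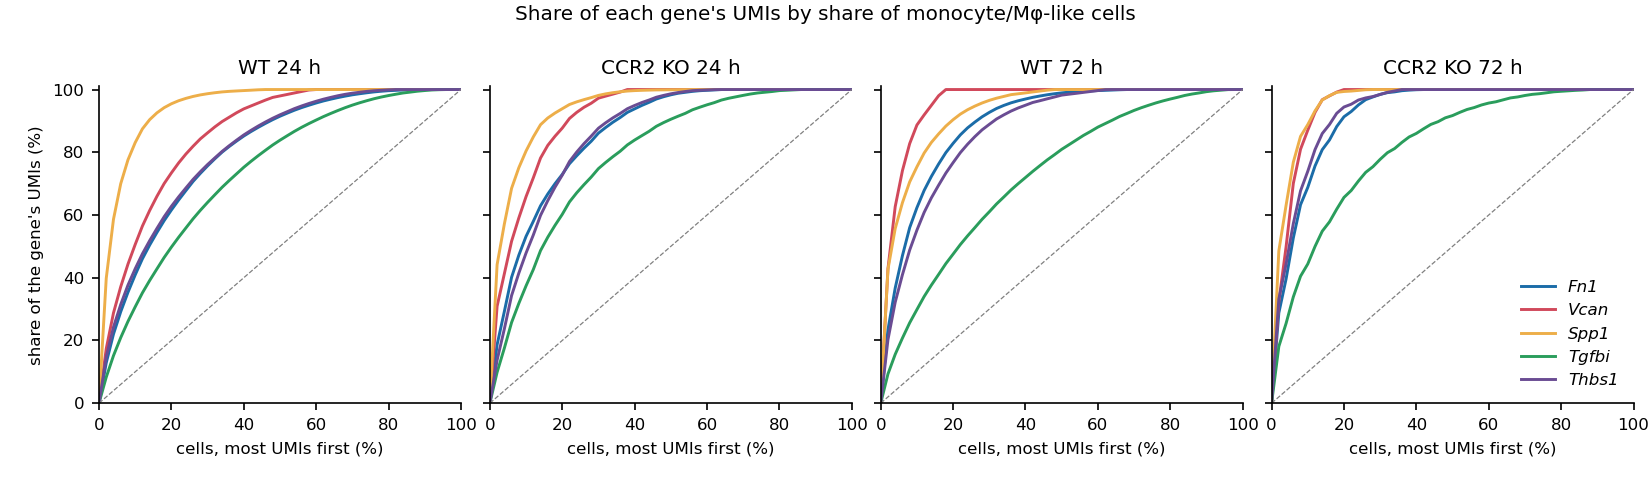
Share of each gene's UMIs (vertical axis, %) held by a given share of monocyte/Mφ-like cells (horizontal axis, %), cells taken from most to fewest UMIs; the dashed line is an even spread. Spp1 is the steepest curve at 24 h, Tgfbi the flattest in all 4 libraries, and Vcan is steeper in WT 72 h than in WT 24 h.

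Few cells carried the whole set. At 1000 UMIs per cell, 30.5% of monocyte/Mφ-like cells in WT 24 h had 3 or more of the 5 genes, 27.4% in CCR2 KO 24 h, 14.0% in WT 72 h and 16.4% in CCR2 KO 72 h. All 5 were found together in 13, 5, 1 and 2 cells. In neutrophil-like cells 3 or more were found in at most 1.01% of cells. Fn1 and Vcan were positively related over cells in all 4 libraries, with Spearman's rho of levels per cell at 0.40 in WT and 0.42 in CCR2 KO at 24 h, and at 0.39 and 0.58 at 72 h. Fn1 and Spp1 had 0.21, 0.60, 0.04 and 0.49 in the same order. Spp1 and Tgfbi stayed between -0.12 and 0.03. Cells share a library and depth, so these are descriptions only.

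The neutrophil-like cells were described in the same way, a choice made after their levels had been seen, and only Spp1, Tgfbi and Thbs1 reached 50 CPM there. At 24 h Spp1 was at 1.28 (0.999 to 1.58) and Thbs1 at 1.19 (1.07 to 1.32) in CCR2 KO against WT, both past 2-fold, and Tgfbi at -0.18 (-0.32 to -0.04). That is 2 of 3, where 6.88% of 2571 genes were past 2-fold, 4.59% higher and 2.29% lower. At 72 h none of the 3 was past it, with Thbs1 at 0.0046 (-0.28 to 0.30), Tgfbi at 0.06 (-0.16 to 0.30) and Spp1 at -0.14 (-0.38 to 0.09), where 2.44% of 3160 genes were, 1.36% higher and 1.08% lower. The Spp1 values rested on few WT cells, since 10 cells held 84.3% of its UMIs in WT 24 h and 84.0% in WT 72 h. Without the 10 highest cells of each library Spp1 was at 3.08 at 24 h and 1.08 at 72 h. WT had fewer neutrophil-like cells, so leaving out 10 took a larger part of them, and this itself tends to raise the ratios.

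Between the times, Thbs1 was lower at 72 h in neutrophil-like cells of both genotypes, at -1.51 (-1.81 to -1.23) in WT against -2.70 (-2.83 to -2.58) in CCR2 KO. Tgfbi was at -0.74 (-0.99 to -0.50) and -0.50 (-0.61 to -0.39), and Spp1 at 1.44 (1.09 to 1.80) in WT against 0.02 (-0.11 to 0.14) in CCR2 KO. In WT 30.1% of 3115 genes were past 2-fold (24.6% higher, 5.49% lower) and in CCR2 KO 19.4% of 3053 (14.2% higher, 5.18% lower). Being past 2-fold was thus common for higher genes and less so for lower ones. Counted from the lowest ratio, Thbs1 ranked at percentile 3.02 in WT and 0.20 in CCR2 KO. Scaling moved these ratios strongly, since TMM shifted them all by -0.67 in WT and -0.54 in CCR2 KO. In WT 767 genes were higher and 171 lower, but 273 and 536 under TMM, and in CCR2 KO 433 and 158, but 149 and 469 under TMM. Thbs1 stayed lower under TMM, at -2.18 and -3.24, whereas Spp1 was at 0.77 and -0.52.

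Thbs1 and Tgfbi were high in different neutrophil-like clusters. The 724 cells of the cluster led by Cxcl2, Il1rn, Ccl3, Slc7a11, Cd9 and Ccl4, genes of activated cells, had Thbs1 at 2476 CPM and Tgfbi at 332 CPM. A cluster of 471 cells led by S100a9, S100a8 and Il1b had Thbs1 at 369 and Tgfbi at 980 CPM. The first cluster drew 606 of its cells from CCR2 KO 24 h, so it may be that library as much as a cell state. Within it Thbs1 stood at 2830 CPM in CCR2 KO 24 h, 1515 in WT 24 h (48 cells) and 615 in CCR2 KO 72 h (52 cells). The cluster led by S100a9, S100a8, Retnlg and Ifitm1 showed the same order by time, at 1755 and 1018 CPM in CCR2 KO and WT at 24 h, and 240 and 138 CPM at 72 h.

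**Figure D5:**
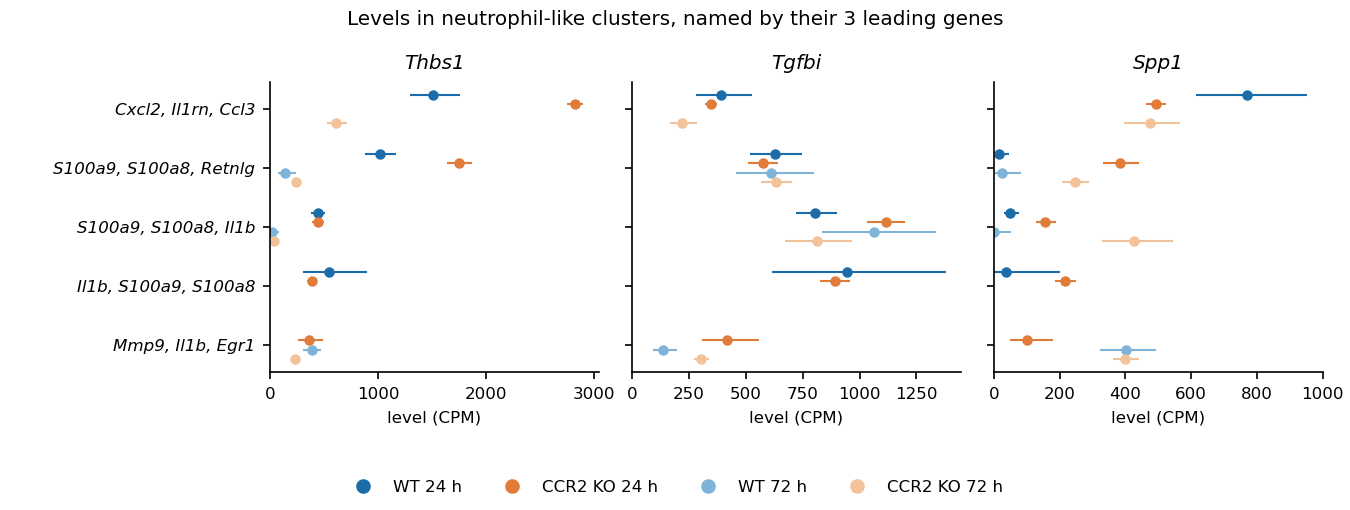
Level in CPM of Thbs1, Tgfbi and Spp1 in the neutrophil-like clusters, labelled by their 3 leading genes, 1 point per library with 20 or more cells, with 95% counting intervals. Thbs1 is highest in the Cxcl2, Il1rn, Ccl3 cluster (2830 CPM in CCR2 KO 24 h), where Tgfbi is among its lower values.

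Cells with a Siglecf UMI, the gene of a lectin on eosinophils and on a granulocyte state of inflamed tissue, made up 24 of the 301 neutrophil-like cells in WT 24 h, 188 of 1307 in CCR2 KO 24 h, 82 of 187 in WT 72 h and 264 of 535 in CCR2 KO 72 h. Spp1 in these cells was 636, 540, 467 and 331 CPM, and in those without 108, 326, 351 and 389 CPM. Thbs1 was 709, 1608, 302 and 377 CPM with a Siglecf UMI and 770, 1778, 243 and 178 CPM without. Eosinophil markers such as Ccr3 and Ear6 summed to at most 6.33 CPM in neutrophil-like cells.

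Genes of the same biology were read from 4 lists in monocyte/Mφ-like cells. Of 16 receptors of the 5 proteins, 11 could be compared at 24 h. There 4.16% of the 3225 genes compared were past 2-fold between the genotypes, and so was 1 of the 11 receptors. This was Cd36, a thrombospondin and lipid receptor, at 240 CPM in CCR2 KO and 40.8 in WT, with a log2 ratio of 2.53; at 72 h it stood at 248 and 49.7 CPM (2.30). Tlr2, a receptor of microbial lipoproteins that also binds versican, was lower in CCR2 KO at 72 h, at 72.3 and 156 CPM. At 72 h 12 receptors were compared, with 1 past 2-fold higher and 1 lower, where 4.83% and 2.84% of 3456 genes were. The list median was -0.06 at 24 h, beside -0.08 over all genes compared.

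Of 33 genes for matrix processing and cross-linking, 18 could be compared at 24 h, of which 6 were past 2-fold higher in CCR2 KO and 2 lower, where 2.98% and 1.18% of all genes compared were. Mmp13 (83.3 and 2.93 CPM in CCR2 KO and WT) and Mmp12 (89.1 and 5.23 CPM), which encode a collagenase and a macrophage elastase, and Plau (55.1 and 12.1 CPM), the urokinase gene, were furthest up. F13a1, which encodes the fibrin- and fibronectin-crosslinking factor XIII subunit, was lower, at 173 and 401 CPM, and so was Timp1, at 19.7 and 56.5 CPM. The median of this list was 0.12, beside -0.08 over all genes compared. At 72 h 13 were compared, with Mmp9, Adam8 and Mmp19 higher and Timp2 lower (194 and 408 CPM). Of all 3456 genes compared there, 4.83% were past 2-fold higher and 2.84% lower. From 24 h to 72 h in WT, Mmp12 (5.23 to 50.3 CPM) and Timp2 (78.7 to 408 CPM) were past 2-fold higher. Of the 14 compared, 6 were past 2-fold lower, led by Mmp14 (182 to 39.2 CPM), Adam8 and Timp1. Among all 3458 genes compared there, 6.3% were past 2-fold higher and 8.1% lower. In CCR2 KO 6 of 17 were lower between the times, led by Plaur (556 to 91.4 CPM), Mmp14 and Tgm2, and Timp2 was higher. Of 3507 genes compared there, 5.76% were past 2-fold lower and 7.64% higher.

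Of 29 other matrix and matricellular genes, 3 could be compared in each comparison. Ecm1 was past 2-fold lower in CCR2 KO, at 144 and 319 CPM at 24 h and 75.6 and 192 CPM at 72 h. Of all genes compared, 1.18% were past 2-fold lower at 24 h and 2.84% at 72 h. Of 20 TGF-β axis genes 8 were compared at 24 h. Inhba, the activin A subunit (112 and 11.4 CPM), and Tgfbr1 (107 and 38.6 CPM) were past 2-fold higher in CCR2 KO, where 2.98% of all genes compared were. Inhba was at 0.479 CPM in CCR2 KO 72 h, a single UMI. In WT, Tgfbr2 (60.2 to 151 CPM) and Tgfbr1 (38.6 to 87.2 CPM) were past 2-fold higher at 72 h. They were among 6 compared, where 6.3% of all genes compared were past 2-fold higher. At 72 h 0 of 6 TGF-β axis genes were past 2-fold between the genotypes, where 7.67% of all genes compared were. In neutrophil-like cells at 24 h 4 of 10 were past 2-fold higher in CCR2 KO, where 4.59% of 2571 genes were, among them Tgfb1, the main leukocyte TGF-β gene, at 289 and 105 CPM, Inhba at 91.6 and 19.1 CPM and Smad7, an inhibitor of the pathway, at 71.1 and 30.02 CPM. These counts are by ratio alone, with no test.

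The genes whose levels were most like each of the 5 were taken by Pearson's r of log2(CPM + 10) over 17 points, each a class in a library with at least 20 cells. F13a1, C3ar1 and C1qb were nearest to Fn1 (r of 0.99, 0.98 and 0.98), and Msr1, Mmp14 and Ccl12 to Vcan (0.98, 0.97 and 0.96). C1qb was among the markers that defined the monocyte/Mφ-like class, so its nearness to Fn1 is partly built in. Fam20c, Ccl6 and Hmox1 were nearest to Spp1 (all 0.94), Clec4a2, Cd302 and Wdfy3 to Tgfbi (0.98, 0.98 and 0.97), and Ftl1-ps1, Slc11a1 and Sdcbp to Thbs1 (0.96, 0.96 and 0.94). Ftl1-ps1 is a pseudogene whose reads can be split with its parent, so its level is uncertain. Among the 5 themselves, Spp1 and Tgfbi had r of 0.90 over these points and Fn1 and Thbs1 0.59. Over 15 points of Mφ subset gates the order differed, with Vcan and Thbs1 at 0.86, Fn1 and Thbs1 at 0.84 and Spp1 and Tgfbi at -0.13. The nearest genes there were Diaph1, Adora2b and Slc16a3 for Fn1, Mcemp1, Adprh and Clec4e for Vcan, Plekhm2, Fam20c and Ccl24 for Spp1, Sf3b1, Gm5150 and Capza2 for Tgfbi, and Adora2b, Stk40 and Cebpb for Thbs1. Points of 1 library share its depth and its mice, so these are descriptions with no test.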

How the data were processed

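The deposited values are raw UMI counts per gene and cell. The authors prepared 10x 3′ libraries, aligned and counted them with Cell Ranger 3.0.2 on GRCm38 and filtered cells, and the processing notes also name Seurat. No further filter was applied: every deposited cell had at least 250 genes and at most 9.99% mitochondrial UMIs. Cells were scored for 5 classes by log counts per 10000 UMIs of marker lists. A cell needed a score of at least 0.2 and a lead of 0.1, and subset gates were made in the same way. Levels are pooled CPM with exact Poisson intervals. Ratios are log2(CPM + 1), which understates the change of low genes, with exact conditional binomial intervals, over genes at 50 CPM or more in 1 library. With 1 library per group no test was possible. Scrublet marked only 11 of 5811 cells (0.189%), so it may have missed doublets, and how many remain was not measured. Clusters came from scanpy 1.11.5 and leidenalg 0.10.2 (resolution 1, 30 components, 20 neighbours), scaling from edgeR 4.0.16 and DESeq2 1.42.0, in Python 3.11.15 and R 4.3.3. Interval and ratio code was tested on simulated data. Named genes were the 5 genes, the 3 nearest by correlation and, of each list, up to 3 past 2-fold in each direction. The genes and lists were chosen with earlier results of these data known.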

Additional observations from a re-analysis of the deposited data

Results flagged for a closer look

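Between 24 h and 72 h, Fn1 in monocyte/Mφ-like cells went opposite ways in the genotypes, with log2 ratios of 0.36 in WT and -0.24 in CCR2 KO. Between CCR2 KO and WT, the direction differed by time for Vcan (-0.70 at 24 h and 1.40 at 72 h), Tgfbi (-0.51 and 0.35) and Thbs1 (0.25 and -1.13). Without the 10 highest cells Vcan and Tgfbi at 72 h were at -0.040 and -0.066 and Thbs1 at 24 h at -0.025. That cut takes a larger part of the CCR2 KO cells, which are fewer, so it tends to lower these ratios. With at most 5% mitochondrial UMIs Thbs1 at 72 h was at 0.0062, and Fn1 between the times in CCR2 KO was at 0.20 to 0.71 under 3 settings. Each counting interval of the values as reported excluded 0, but with 1 library per group these differences were not tested, and the 72 h values of CCR2 KO came from 133 cells.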

How the results depend on the processing

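No paired analysis was possible because each group is 1 library and the labels give no replicate that pairs them; leaving out a replicate was likewise not possible. All 11 alternatives were run for the ratios of the 5 genes in monocyte/Mφ-like cells and of 3 in neutrophil-like cells, not for the genes of the lists. In monocyte/Mφ-like cells the number of the 5 genes past 2-fold changed as follows. For CCR2 KO against WT at 24 h, lower, it went from 0 to 1 without the 10 highest cells. Leaving these out also moved lower from 2 to 3 at 72 h and between the times in both genotypes. A cut of 10 cells takes a larger part of the library with fewer cells of the class, so it tends to lower the level in that library. At 72 h, higher, it went from 1 to 2 with at most 5% mitochondrial UMIs and to 0 without the 10 highest cells, and lower, from 2 to 0 with cluster classes, with at most 5% mitochondrial UMIs and with equal cell weights. Between the times in WT, lower, it went from 2 to 1 without cells holding non-immune marker UMIs, to 3 with at most 5% mitochondrial UMIs and to 4 under TMM and median-of-ratios scaling. The share of all genes past 2-fold became 4.71% under TMM for lower at 72 h (2.84% as reported), 3.31% for lower in WT time with no minimum level (8.1%), and, for time in CCR2 KO, 12.8% higher with no minimum, and 4.46% higher and 10.5% lower under TMM. Ratios past 2-fold that changed sign, all CCR2 KO against WT at 72 h, were Fn1 at 0.16 and Thbs1 at 0.0062 with at most 5% mitochondrial UMIs, and Vcan at -0.040 without the 10 highest cells. For Thbs1 and Vcan these values mean almost no difference rather than a turned direction. Ratios within 2-fold also turned in sign in monocyte/Mφ-like cells. Without the 10 highest cells these were Thbs1 at 24 h and Spp1 and Tgfbi at 72 h between the genotypes, at -0.025, -1.24 and -0.066, and for time in CCR2 KO they were Fn1, Vcan and Tgfbi, at up to 0.71, 0.65 and 0.51. In neutrophil-like cells Spp1 and Thbs1 between the genotypes at 72 h and Spp1 for time in CCR2 KO turned under some settings. In neutrophil-like cells, where alternatives were chosen after seeing the data, the number past 2-fold at 24 h, higher, was 1 in place of 2 without cells holding non-immune marker UMIs or with equal weights, and, lower, 1 in place of 0 with a looser gate. At 72 h, higher, it was 1 in place of 0 without the 10 highest cells. For time in WT, higher, it was 0 in place of 1 under both scalings, and, lower, 2 in place of 1 with a looser gate, equal weights or either scaling. For time in CCR2 KO, lower, it was 2 in place of 1 under TMM. With Spearman in place of Pearson fewer than 2 of the 3 nearest genes were kept in 9 of 10 searches. The causes were not tested. The 133 monocyte/Mφ-like cells of CCR2 KO 72 h limit the precision, and 1 library per group limits every comparison.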
